A study of Mus musculus with 16 samples.

Results

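The 150 most abundant RIKEN clone transcripts of the mouse medial PFC are described here over cell classes and over the 4 groups of a single-nucleus RNA-Seq experiment. They are the rows of the count table whose gene symbol ends in Rik, without 4933409K07Rik and 9030025P20Rik, that had the most unique molecular identifiers (UMIs, each one captured RNA molecule) summed over all nuclei of all mice. They were 150 of 1320 such rows and of 19999 rows in all. The members were thus chosen by their summed UMIs, so their abundance is a description. A transcript could also enter through the groups in which it was high. Of the 12 members called between groups below, 3 would have missed the limit if every mouse had shown the mean level of the group with the least, namely A830036E02Rik (place 140, 5995 UMIs against 118 at that level), 1110046J04Rik (place 142, 5945 against 5297) and 1700080N15Rik (place 52, 14903 against 5614). Differences of these 3 between groups are given as a description, with no test, and the main edgeR counts of calls are given with and without them. Counts under alternative runs and totals over the classes include them. The last members were 4930453N24Rik with 5716 UMIs and 9330151L19Rik with 5697, and the first transcripts left out were 1810030O07Rik with 5653 and 1700021F05Rik with 5599.

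Nuclei came from 16 male mice at 22 weeks of age on the mixed strain B6;129. The 4 groups held 4 mice each, namely wild-type (WT) control, WT alcohol, 3xTg-AD control and 3xTg-AD alcohol. The alcohol mice had repeated cycles of intoxication by ethanol vapor, each begun with an injection of ethanol and the alcohol dehydrogenase inhibitor pyrazole, while the control mice received pyrazole in saline and breathed air, so pyrazole was common to all groups. The 3xTg-AD line carries a human APP transgene with the Swedish mutation and a human tau transgene with the P301L mutation, both expressed in neurons, on a knock-in of the PS1 M146V mutation, and these human sequences are not rows of the table. Each mouse was 1 library, named here by its group and its number.

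A Rik name is a provisional name. It was given to a full-length mouse cDNA cloned in the RIKEN sequencing program, whose sequences were annotated by the FANTOM consortium, and it stays in use until the gene receives a name that states its function. The names therefore mix protein-coding genes without an agreed function with long noncoding RNAs (lncRNAs), which are transcripts without a long open reading frame that can act in the nucleus on nearby genes, bind proteins, or serve as precursors of microRNAs. Brain contributed many of the cloned libraries, and nuclei keep unspliced and nuclear-retained RNA. The part of either in the levels given here was not tested.

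Over all nuclei, the table held 114512 nuclei and 216742276 UMIs, with 4955 to 9096 nuclei and 9622031 to 17544364 UMIs per mouse. The nuclear RNA Gm42418, which holds ribosomal RNA sequence, made up 1.79% to 2.90% of the UMIs of WT control 26, WT control 27 and 3xTg-AD control 12, against 0.206% to 0.425% in the other 13 mice. WT control 27 also had 1808 CPM (counts scaled to 1000000 UMIs per mouse) of olfactory-type markers in its GABAergic nuclei, against 72.6 to 246 CPM in the other mice. Rbmxl1 separated the genotypes as labelled and lay at 28.2 to 50.9 CPM in the 8 WT mice and at 6.69 to 12.1 CPM in the 8 3xTg-AD mice. A total of 1694 nucleus barcodes occurred in more than 1 mouse. The nuclei were assigned to 7 cell classes from marker genes, and 32.0% of the nuclei stayed unassigned. Markers that had no part in the assignment were highest in their own class in every class but the neurons, with 5 of 6 for GABAergic and 1 of 3 for glutamatergic nuclei, where Camk2a was highest in astrocytes and Nrgn in microglia.

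The 150 transcripts had 2402090 UMIs, which was 1.11% of all UMIs and 70.7% of the UMIs of the 1320 ranked Rik rows. They ranged from 5697 to 111519 UMIs with a median of 10195, and the 10 leading members held 23.9% of the sum. Their places among all genes ran from 124 to 6827. UMIs were read at the 3' end and not divided by transcript length, so this order is one of captured molecules. Their joint share of the UMIs was 1.10% ± 0.106 (SD, n = 4) in WT control, 1.11% ± 0.0449 in WT alcohol, 1.12% ± 0.0232 in 3xTg-AD control and 1.12% ± 0.0535 in 3xTg-AD alcohol mice.

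The GENCODE annotation held all but 3 of the 150, of which 79 were protein-coding and 68 lncRNA. The lncRNAs comprised 22 processed transcripts, 21 intergenic RNAs, 19 antisense RNAs, 5 RNAs from bidirectional promoters and 1 sense-intronic RNA. Of all matched members, coding ones included, 60 overlapped a coding gene on the opposite strand and 14 overlapped one on the same strand. The 3 that were not matched were C030017B01Rik, 4933424G05Rik and A230051N06Rik. The strand and intron settings of the counting are not given in the sources used here, so reads of a transcript that overlaps a coding gene and of its partner are reported as uncertain. A single exon was annotated for 16 members, and 4 lay on the X chromosome. RefSeq gives another symbol for 10 members. Among these, 2900097C17Rik is Norad, a lncRNA that binds Pumilio proteins, and 1810026B05Rik is Chaserr, a lncRNA at the chromatin remodeler gene Chd2. Coding members renamed in RefSeq included 5330417C22Rik (Elapor1) and 9330182L06Rik (Elapor2), a pair of related membrane proteins, and 4931406P16Rik (Garre1), a Rac1 effector.

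The most abundant member, 2900097C17Rik (Norad), is shown first for its repeated Pumilio-type octamer, TGTANATA, searched on the transcript's strand. It is a single-exon transcript of 4915 bases on the minus strand of chromosome 2 (chr2:156388065-156392979, GRCm38/mm10), and it held 11 matches. Of 29758 genes whose longest transcript had at least 1000 bases, 7 (0.0235%) had as many, and among 137 members of that length Norad alone did, whereas 26.9% of the genes had at least 1. A set of 4 of its 11 matches is printed in 30 bases of context, with the octamer in capitals, read from the genome of that build on the minus strand. A pair of these lies 9 bases apart and shares most of its context.
Norad chr2:156392311-156392340: tagaagtcctgTGTATATAatatgaaaaag
Norad chr2:156390520-156390549: ctttgctatgcTGTATATAttgtacatact
Norad chr2:156390511-156390540: gctgtatatatTGTACATActggacaaacg
Norad chr2:156390208-156390237: cagtactactaTGTATATAggggacaaatt
A match is a description of letters and not a measured binding site.

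Norad had 111519 UMIs and was found at 333 to 632 CPM in the 16 mice. WT control mice gave 463, 368, 553 and 593 CPM, WT alcohol mice 632, 566, 581 and 593, 3xTg-AD control mice 333, 519, 582 and 572, and 3xTg-AD alcohol mice 446, 446, 519 and 424. The WT alcohol mice lay above the 3xTg-AD alcohol mice, a difference that was not called, and the other pairs of groups overlapped. The 3 lowest of the control values, 333, 368 and 463 CPM, came from the 3 mice with the most Gm42418, whose part in these levels was not tested. It was higher per UMI in glia than in neurons, with means over 16 mice of 764 CPM in microglia, 738 in astrocytes, 665 in vascular cells, 642 in oligodendrocytes, 513 in oligodendrocyte precursors, 431 in GABAergic and 368 in glutamatergic nuclei.

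A microRNA gene lay in or within 10000 bases of 19 members, and for 14 of them RefSeq (GRCm38.p6) gave the mature sequences, 54 from 30 microRNA genes. MicroRNAs pair with messenger RNAs mainly through the seed, bases 2 to 8, and microRNAs with the same seed tend to share targets. The 54 mature sequences had 42 seeds, of which 8 occurred in more than 1 sequence. The sequences of the most abundant such members are printed with the seed in capitals, since they identify the microRNA genes that lie in or next to these transcripts. The nuclear 3' counts measured the host transcript and not the mature microRNA.
A330023F24Rik, miR-29b-3p: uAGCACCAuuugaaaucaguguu
A330023F24Rik, miR-29c-3p: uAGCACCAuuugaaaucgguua
6720427I07Rik, let-7a-5p: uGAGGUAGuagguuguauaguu
6720427I07Rik, let-7d-5p: aGAGGUAGuagguugcauaguu
6720427I07Rik, let-7f-5p: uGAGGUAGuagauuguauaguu
C130071C03Rik, miR-9-5p: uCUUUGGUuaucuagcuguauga
E130102H24Rik, miR-101a-3p: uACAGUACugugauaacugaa
9530059O14Rik, miR-138-5p: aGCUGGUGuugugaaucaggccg
5330434G04Rik, miR-325-3p: uUUAUUGAgcaccuccuaucaa
5330434G04Rik, miR-384-5p: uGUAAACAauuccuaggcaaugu
The miR-29 pair shared the seed AGCACCA and the 3 let-7 sequences shared GAGGUAG. The genes of miR-29b-2, miR-29c, the 3 let-7 microRNAs, miR-9-2, miR-101a and miR-325 lay inside the members named on their lines and on the same strand. The miR-384 gene lay 3913 bases from 5330434G04Rik and the miR-138-1 gene 3280 bases from 9530059O14Rik.

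Levels of these transcripts differed between classes. A330023F24Rik, on chromosome 1 (chr1:194976375-195037904, plus strand), was the member with the second most UMIs, 65913. Its level in all nuclei was 295.9, 395, 294 and 358 CPM in WT control, 227, 242, 281 and 196 in WT alcohol, 408, 368, 369.8 and 247 in 3xTg-AD control, and 357.5, 374, 226 and 281.5 in 3xTg-AD alcohol mice. All 4 WT alcohol mice lay below the WT control mice, while the 3xTg-AD groups overlapped. That difference was not called. In GABAergic nuclei it reached 410 to 767 CPM, against 219 to 430 CPM in glutamatergic nuclei and 95.1 to 199 CPM in astrocytes. C130071C03Rik, which spans the miR-9-2 gene (chr13:83721381-83884194, plus strand), was at 146 to 222 CPM in GABAergic, 124 to 175 CPM in glutamatergic nuclei and 81.0 to 191 CPM in astrocytes. 9530059O14Rik, next to miR-138-1 on chromosome 9, differed from these, with 166 to 269 CPM in glutamatergic nuclei and 4.36 to 20.6 CPM in astrocytes. 

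The protein-coding members with the most UMIs differed in their classes as well. 4932438A13Rik (55736 UMIs), the large gene also known as Bltp1, whose product belongs to the bridge-like lipid transfer proteins, had class means from 159.6 CPM in vascular cells to 359 CPM in GABAergic nuclei, which were highest in all 16 mice. 6330403K07Rik (54433 UMIs) was spread over the classes, from 213 CPM in glutamatergic nuclei to 342 CPM in microglia. A830018L16Rik (42782 UMIs) was at 233 CPM in glutamatergic and 226 CPM in GABAergic nuclei and at 58.3 to 72.1 CPM in the 5 other classes. 4430402I18Rik (38382 UMIs), which overlaps the glutamate transporter gene Slc1a1 on the opposite strand, was at 309.9 CPM in oligodendrocyte precursors, 233 CPM in GABAergic and 212 CPM in glutamatergic nuclei and at 25.02 CPM in astrocytes. Its means in all nuclei were 173 ± 33.03, 192 ± 14.1, 181 ± 29.5 and 166 ± 17.98 CPM (SD, n = 4) in WT control, WT alcohol, 3xTg-AD control and 3xTg-AD alcohol mice, and the groups overlapped.

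Levels over cell classes are given as the mean over 16 mice of CPM in counts summed per mouse and class, with no test, since large classes weighed most in the choice of members. Neuronal RNA was also counted in the glial classes. In counts summed over all mice, the glutamatergic marker Slc17a7 was at 759 CPM in glutamatergic nuclei, 166 CPM in GABAergic nuclei and 401 CPM in astrocytes, and the GABAergic marker Gad1 at 395 CPM in GABAergic nuclei and 81.3 CPM in astrocytes. The part of free RNA in the levels of glial classes was not tested. The highest mean lay in glutamatergic nuclei for 40 members, GABAergic nuclei for 35, microglia for 26, oligodendrocyte precursors for 21, oligodendrocytes for 10, and astrocytes and vascular cells for 9 each. Glutamatergic nuclei held the highest mean of 26.7% of the members, against 15.1% of the 6676 rows that do not end in Rik and had at least as many UMIs as the last member. Vascular cells held that of 6.0% against 15.8%. Most differences between classes were small, as 13 members (8.67%, against 6.29% of the other rows) were at least 2-fold higher in 1 class than in the next, and 2 (1.33%, against 0.854%) were at least 5-fold higher. The same class was highest in all 16 mice for 19 members, against 8.88% of the other rows. For 6 members the lowest mouse of that class lay above every mouse of every other class, against 3.49%.

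**Figure D1:**
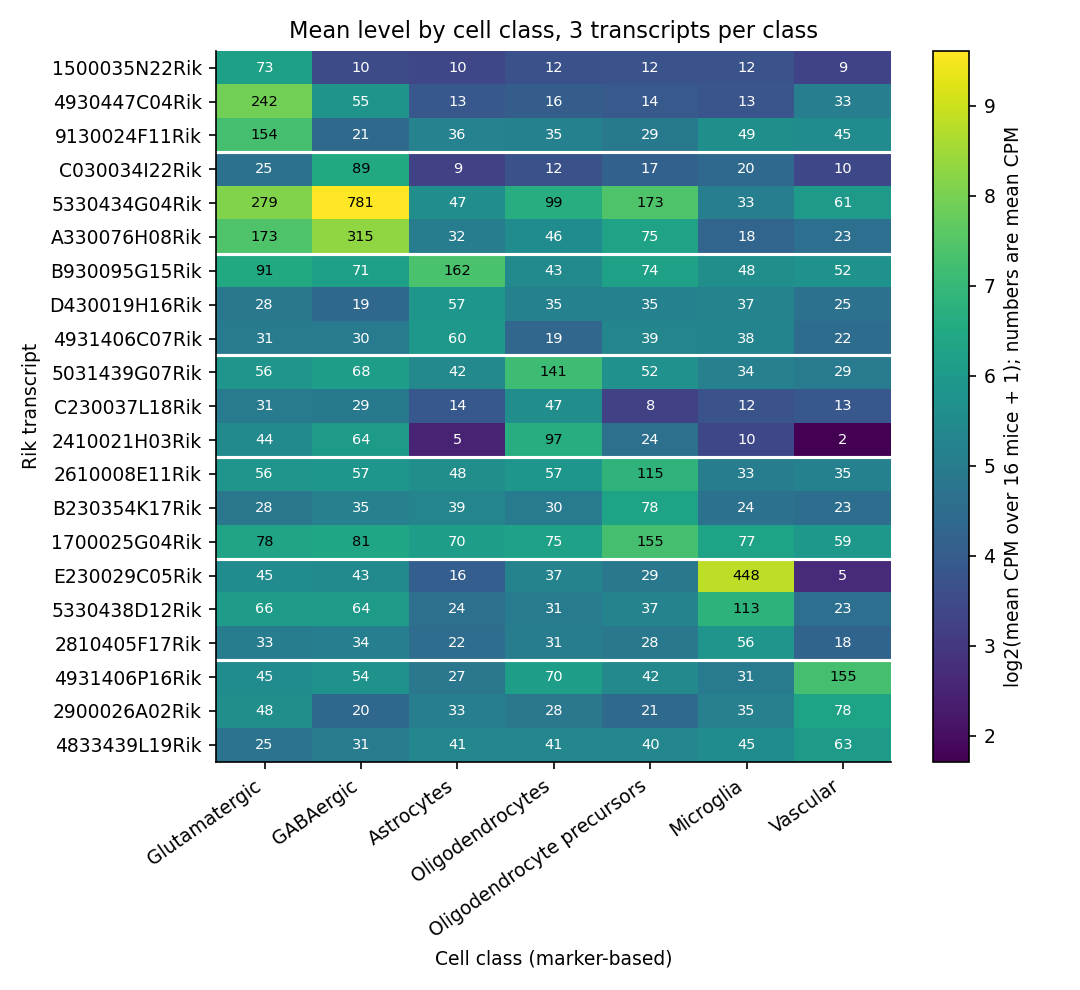
Mean CPM over 16 mice of 3 transcripts for each of 7 cell classes (rows, in blocks of 3) in each class (columns); colors are log2(mean CPM + 1) and the numbers are mean CPM. E230029C05Rik in microglia and 5330434G04Rik in GABAergic nuclei have the highest values in the blocks of their classes.

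By kind of transcript, the highest class was a neuronal one for 45 of 68 lncRNAs (66.2%) and 27 of 79 protein-coding members (34.2%), against 34.6% of the other rows. Summed over the 68 lncRNAs, the level was 6978 ± 328 CPM in GABAergic and 6178 ± 367 CPM in glutamatergic nuclei (SD, n = 16). It was 4382 ± 256 CPM in oligodendrocyte precursors, 3677 in microglia, 3660 in astrocytes, 3573 in oligodendrocytes and 2711 ± 396 CPM in vascular cells. The protein-coding members together varied less, from 4406 CPM in vascular cells to 5434 CPM in glutamatergic nuclei. In all nuclei the groups overlapped in both sums, with lncRNA sums of 5708 ± 582, 5487 ± 262, 5668 ± 124 and 5556 ± 481 CPM (SD, n = 4) in WT control, WT alcohol, 3xTg-AD control and 3xTg-AD alcohol mice. The sums of the coding members were 5105 ± 471, 5433 ± 181, 5319 ± 207 and 5435 ± 101 CPM in the same order.

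**Figure D2:**
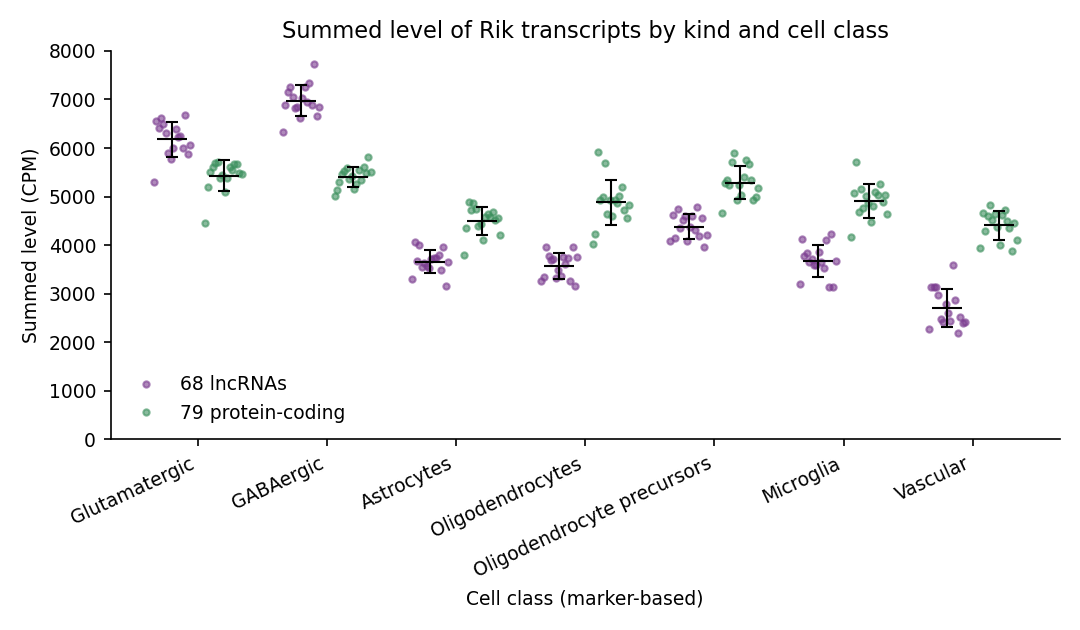
Summed CPM of the 68 lncRNAs and the 79 protein-coding transcripts in each cell class, with 1 point per mouse (16 mice) and the mean ± SD as bars. The lncRNA sums are above the coding sums in both neuronal classes and below them in the 5 others at the mean.

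In glutamatergic nuclei, the members with the highest ratio of their mean to that of the next class were 1500035N22Rik and 4930447C04Rik. 1500035N22Rik, a lncRNA opposite Prkag2, the gene of a subunit of the energy sensor AMPK, was at 73.0 ± 33.4 CPM (SD, n = 16) and 5.89-fold above microglia. 4930447C04Rik, a coding gene opposite Six6 and known as Six6os1, whose protein is a part of the synaptonemal complex in germ cells, was at 242 ± 38.5 CPM, 4.39-fold above GABAergic nuclei. In GABAergic nuclei, 5330434G04Rik, an X-linked lncRNA over miR-325, was at 781 ± 49.8 CPM and ranged from 688 to 837 CPM over the 16 mice, against 279 ± 34.6 CPM in glutamatergic nuclei. No GABAergic value overlapped a value of another class. C030034I22Rik, a single-exon lncRNA on chromosome 17, was at 89.3 ± 13.9 CPM and 3.62-fold above glutamatergic nuclei.

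In glia the highest ratio was that of E230029C05Rik, a lncRNA of 13 exons on chromosome 7 (chr7:89980723-90049069, plus strand) that lies opposite Eed, the gene of a subunit of the Polycomb repressive complex. It was at 448 ± 174 CPM in microglia, 10.1-fold above the next class, with 248, 412 and 938 CPM as the lowest, the median and the highest mouse. Glutamatergic nuclei had 44.5 ± 14.1 CPM, and the highest value of any mouse in any other class was 73.3 CPM. The promoter window of its RefSeq transcript, 250 bases before to 50 bases after that start on GRCm38.p6, is printed because its microglial level stood apart. The RefSeq start lies 48436 bases inside the GENCODE gene given above, so this is not the window of the GENCODE start. Motifs in capitals are matches to TATAAA on either strand. That motif was in 13.6% of all 32851 such windows. The match printed here lies after the RefSeq start, on the strand opposite the transcript.
E230029C05Rik chr7:90028909-90029208, plus strand: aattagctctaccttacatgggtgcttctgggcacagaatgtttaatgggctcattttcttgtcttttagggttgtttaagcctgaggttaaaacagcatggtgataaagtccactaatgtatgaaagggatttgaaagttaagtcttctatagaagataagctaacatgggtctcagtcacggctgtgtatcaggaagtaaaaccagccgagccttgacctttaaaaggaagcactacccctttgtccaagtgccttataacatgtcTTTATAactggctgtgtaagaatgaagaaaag
The window had a GC content of 40.0% and 2 CpG dinucleotides.

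The other glial members were closer to the remaining classes. 5031439G07Rik, a coding gene that hosts miR-1249, was at 141 ± 39.8 CPM in oligodendrocytes, 2.07-fold above GABAergic nuclei. 2610008E11Rik was at 115 ± 25.96 CPM in oligodendrocyte precursors, 2.02-fold above GABAergic nuclei, and the lncRNA B930095G15Rik, inside the gene Farp1, was at 162 ± 26.1 CPM in astrocytes, 1.79-fold above glutamatergic nuclei. 4931406P16Rik (Garre1) was at 155 ± 43.9 CPM in vascular cells, 2.22-fold above oligodendrocytes. Vascular and some microglial values rest on few UMIs, 68 to 171 in all mice for the 3 vascular members, and at least 1 mouse had none for 2900026A02Rik, 4833439L19Rik and 2810405F17Rik.

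RefSeq promoter windows were found for 117 members, 52 lncRNA and 64 protein-coding among them. The GC box GGGCGG, the site type of Sp1-family factors, was present on either strand in 43 of 64 coding and 25 of 52 lncRNA members, against 35.7% of all windows. CCAAT, the site type of NF-Y, was in 21 of 64 and 21 of 52, against 37.4%, and TATAAA in 5 of 64 and 6 of 52. The counts of members take any window of the gene and the shares of all windows take single windows.

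The groups were compared with edgeR's quasi-likelihood test on counts summed per mouse, and a transcript was called at an adjusted p (Benjamini-Hochberg over all genes tested) of at most 0.05. With all nuclei summed, fewer nuclei of a type and less RNA per nucleus cannot be told apart. For genotype alone, 0 of 150 members were called between 3xTg-AD control and WT control mice, where 0.435% of 16767 genes were. An unadjusted p under 0.05 was found for 11 members and for 1372 of the 16767 genes. Between 3xTg-AD alcohol and WT alcohol mice 0 were called against 0.942% of genes, and 20 members and 2348 genes had such a p. For alcohol alone, 0 were called in WT mice against 0.0179% of genes, with 21 members and 2377 genes at such a p. In 3xTg-AD mice 0 were called against 0.483%, with 31 members and 2013 genes at such a p. The count called in 3xTg-AD mice was 7 (4.67%, against 1.43% of genes) without 3xTg-AD control 12 and 11 (7.33%, against 2.65%) without the 3 mice with the most Gm42418. The interaction of genotype and alcohol called no gene at all (0.0%), with 6 members and 583 genes at such a p. DESeq2 called 1, 3, 1, 8 and 0 members in these 5 comparisons in the order given, where it called 1.19%, 2.51%, 0.602%, 2.36% and 0.00596% of all genes. The 8 were 5.33% of the members.

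Between 3xTg-AD alcohol and WT control mice, which differ in both genotype and alcohol, 6 of 150 members were called (4.00%), a share near the 4.06% of all 16767 genes. Without A830036E02Rik and 1700080N15Rik, which entered the list through the groups in which they were high, 4 were called. The count depends on single mice, with 2 (1.33%, against 1.66% of all genes) without 3xTg-AD alcohol 33 and 10 (6.67%, against 5.09%) without 3xTg-AD control 12, and it was 13 (8.67%, against 3.82%) without the 3 mice with the most Gm42418. The 777 less abundant Rik rows that were tested gave 41 (5.28%). B230307C23Rik and B230209E15Rik were higher, where 1.56% of all genes were higher, and C230057M02Rik, A830036E02Rik, 1700080N15Rik and E530011L22Rik were lower, where 2.5% were. Of the 4 that were lower, 3 are annotated as antisense RNAs, as are 19 of all 150 members. Among these 3 are A830036E02Rik and 1700080N15Rik, which entered through the groups in which they were high. The count is thus a description and no evidence about antisense RNAs, whose share among all called genes was not counted. The median log2 fold change of the 150 members was 0.04, that of all genes 0.00. The cell classes also differed in this comparison. Astrocytes made up 9.76% to 11.5% of the nuclei in 3xTg-AD alcohol and 6.84% to 8.90% in WT control mice, and microglia 2.29% to 4.76% and 0.960% to 2.27%, without overlap in either class. The part of these shifts in the values over all nuclei was not tested. The same 6 members were called in glutamatergic nuclei. Those nuclei hold 138003591 of the 216742276 UMIs, so both sums share most of their counts.

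**Figure D3:**
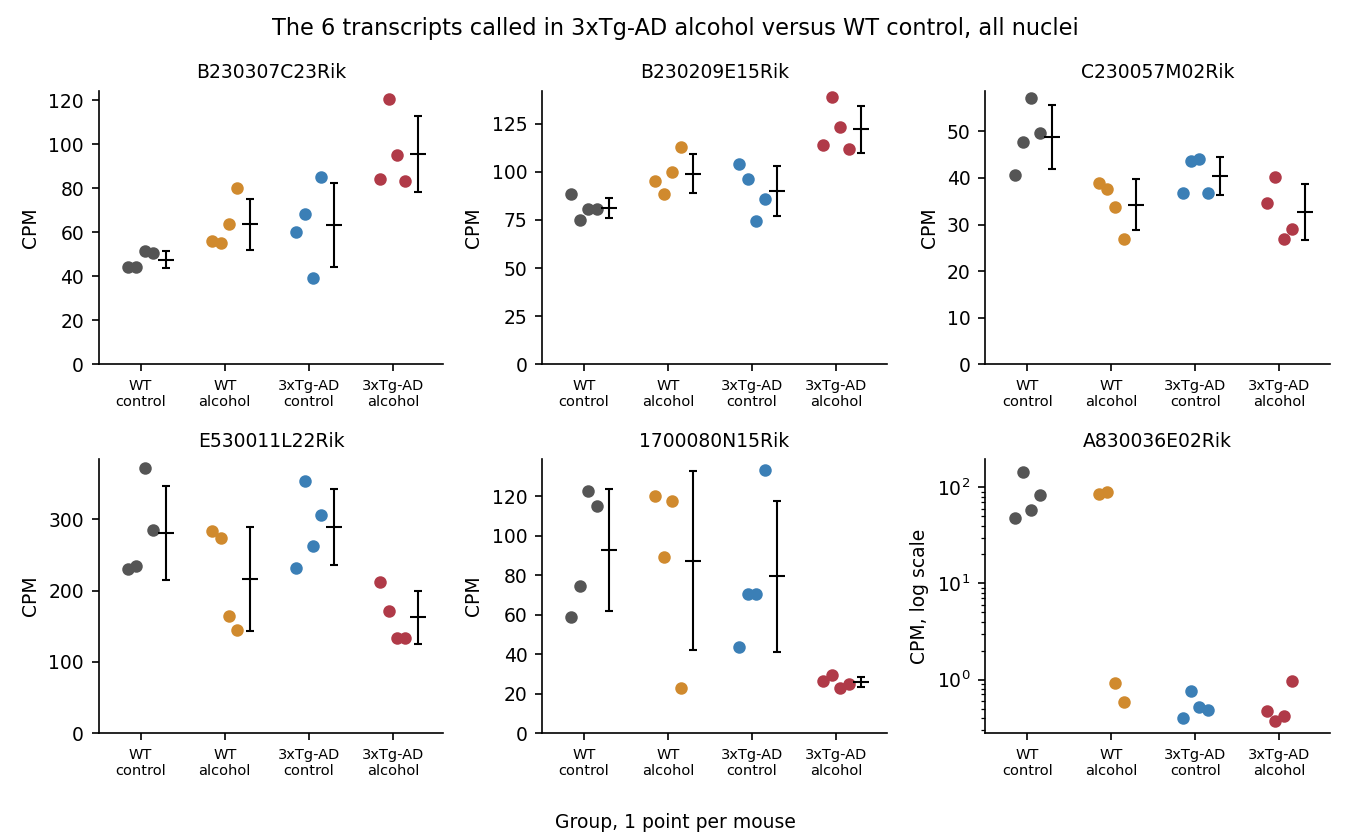
CPM in all nuclei of the 6 transcripts called between 3xTg-AD alcohol and WT control mice, by group, 1 point per mouse with the mean ± SD beside the points (n = 4); A830036E02Rik is on a log axis without bars. The 3xTg-AD alcohol mice do not overlap the WT control mice in any panel, and A830036E02Rik falls into 6 mice at 48.4 CPM or more and 10 below 1 CPM. The panels were chosen by their call in this comparison, so the lack of overlap is a description. Its share among all genes was not counted. A830036E02Rik and 1700080N15Rik entered the list through the groups in which they were high.

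B230307C23Rik, a protein-coding gene of 8 exons on chromosome 16 (chr16:97997315-98031801, plus strand), rose in 3xTg-AD alcohol mice. WT control mice had 44.4, 44.3, 51.3 and 50.4 CPM, WT alcohol mice 56.0, 55.0, 63.7 and 80.0, 3xTg-AD control mice 60.3, 68.2, 39.4 and 85.3, and 3xTg-AD alcohol mice 84.0, 120.3, 95.0 and 83.5 CPM. The WT control mice were lowest but for 1 3xTg-AD control mouse. Against WT control the log2 fold change was 0.98 ± 0.18 (SE; edgeR quasi-likelihood test, adjusted p = 0.00688). The same contrast gave 1.06 ± 0.19 in glutamatergic nuclei (adjusted p = 0.00590), 1.09 ± 0.22 in GABAergic nuclei (adjusted p = 0.0112) and 1.11 ± 0.21 in astrocytes (adjusted p = 0.00338). In astrocytes it was also called against WT alcohol mice, by 0.77 ± 0.19 (adjusted p = 0.0475), but this call held in only 6 of 16 fits that each left out 1 mouse (edgeR, adjusted p up to 0.178; lost without any 1 mouse of either group, without 3xTg-AD control 13 or without WT control 36), and DESeq2 did not make it (adjusted p = 0.107). Without the 3 mice with the most Gm42418 with 2 WT control mice remaining, the calls against WT control held in all nuclei (0.996, adjusted p = 0.0455) and astrocytes (1.26, adjusted p = 0.0110) and were lost in glutamatergic (1.06, adjusted p = 0.0563) and GABAergic nuclei (1.06, adjusted p = 0.144). The GABAergic call was also lost without 3xTg-AD alcohol 31 (adjusted p = 0.0545). With a stricter assignment of nuclei to classes, which asked more of each nucleus before it was placed in a class, the glutamatergic call remained, while those against WT control in GABAergic nuclei (0.97, adjusted p = 0.0784) and astrocytes (1.05, adjusted p = 0.0789) and that against WT alcohol (0.42, adjusted p = 0.666) were lost.

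C230057M02Rik, a lncRNA of 8 exons on chromosome 8 that overlaps Gm20388 on the opposite strand, fell. Its values were 40.6, 47.8, 57.2 and 49.6 CPM in WT control, 38.9, 37.6, 33.7 and 26.8 in WT alcohol, 36.8, 43.7, 44.1 and 36.9 in 3xTg-AD control, and 34.7, 40.1, 26.9 and 29.1 CPM in 3xTg-AD alcohol mice. Both alcohol groups lay below every WT control mouse, as did the 3xTg-AD control mice at 36.8 and 36.9 CPM. For 3xTg-AD alcohol against WT control the log2 fold change was -0.60 ± 0.12 (edgeR, adjusted p = 0.00957), and that of WT alcohol against WT control, which shares those controls, was -0.56 ± 0.12 and missed the threshold (adjusted p = 0.232).

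A830036E02Rik, a lncRNA antisense to the keratin gene Krt12 on chromosome 11 (chr11:99416956-99425497, plus strand), was present or nearly absent rather than graded. WT control mice had 48.4, 145.5, 58.3 and 82.5 CPM and WT alcohol 6 and 7 had 85.8 and 88.7 CPM. WT alcohol 17 and 18 had 0.912 and 0.591 CPM, and the 8 3xTg-AD mice had 0.375 to 0.966 CPM. Genotype therefore did not split the mice cleanly, although WT alcohol 17 and 18 lay with the other WT mice for Rbmxl1. Krt12 itself was at 14.7 to 27 CPM in the same 6 mice and at 1.12 to 4.49 CPM in the other 10. It was among the 150 only because of the 6 mice in which it was high, so its levels are given as a description, with no test, and its call is no evidence about the set. In GABAergic nuclei and astrocytes the same 10 mice had 0 UMIs.

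1700080N15Rik, antisense to Frmd4a, which encodes a scaffold protein of cell polarity, was low in all 3xTg-AD alcohol mice. Its values were 58.7, 74.8, 122.6 and 115 CPM in WT control, 120.1, 89.1, 117.6 and 23 in WT alcohol, 43.6, 70.4, 70.5 and 133 in 3xTg-AD control, and 26.6, 29.2, 22.9 and 24.96 CPM in 3xTg-AD alcohol mice. WT alcohol 18, at 23 CPM, lay among the 3xTg-AD alcohol mice. In nuclei assigned to astrocytes the 3xTg-AD alcohol mice had 10.6 to 16.6 CPM, below the lowest value of any other mouse, 19.2 CPM. 1700080N15Rik entered the list through the groups in which it was high, so this separation is a description, with no test. With the stricter assignment its astrocyte calls against WT control and 3xTg-AD control were lost, and that against WT alcohol remained. The summed level was 28.2 CPM in astrocytes, 80.9 CPM in glutamatergic and 104 CPM in GABAergic nuclei.

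E530011L22Rik, a single-exon antisense RNA at Nktr, a gene of a cyclophilin-related protein, had 49520 UMIs and was the most abundant member called. WT control mice had 231, 234, 372 and 285 CPM, WT alcohol mice 284, 274.5, 164 and 144, 3xTg-AD control mice 232, 355, 263 and 306, and 3xTg-AD alcohol mice 212, 171, 133 and 134 CPM. The 3xTg-AD alcohol mice lay below both control groups and overlapped WT alcohol mice. The log2 fold change against WT control was -0.80 ± 0.20 (edgeR, adjusted p = 0.0338). Against 3xTg-AD control mice it was -0.82 ± 0.20 in all nuclei (adjusted p = 0.0756), -0.83 ± 0.18 in GABAergic nuclei (adjusted p = 0.0480), where the groups overlapped, and -0.71 ± 0.16 in astrocytes (adjusted p = 0.0423). Against WT control mice it was -0.70 ± 0.18 in GABAergic nuclei (edgeR, adjusted p = 0.0444), with groups that overlapped. Leaving out 1 mouse at a time, the GABAergic and astrocyte calls against 3xTg-AD control held in 7 of 16 fits each (edgeR, adjusted p up to 0.241 and 0.230) and the GABAergic call against WT control in 8 of 16 (edgeR, adjusted p up to 0.159). All 3 were lost without any 1 of 3xTg-AD control 13 and 14 and 3xTg-AD alcohol 31, 33 and 34. Both against 3xTg-AD control were also lost without 3xTg-AD control 21 or WT alcohol 7, both GABAergic calls without WT control 26 or 36, the astrocyte call without 3xTg-AD control 12 or WT alcohol 18, and the GABAergic call against WT control without WT control 28. With the stricter assignment the GABAergic call against WT control remained, and those against 3xTg-AD control were lost in GABAergic nuclei (-0.70, edgeR, adjusted p = 0.194) and astrocytes (-0.41, edgeR, adjusted p = 0.689). Of the 4 tested calls in all nuclei, those of B230307C23Rik and C230057M02Rik held when any 1 mouse was left out, and those of B230209E15Rik and E530011L22Rik were each lost without at least 1 mouse.

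Per cell class, glutamatergic nuclei gave the same 6 calls between 3xTg-AD alcohol and WT control mice, of 150 tested, against 3.33% of all genes there. Of these, only that of B230209E15Rik held in every fit that left out 1 mouse or WT control 26 and 27 and 3xTg-AD control 12 together, and the other 5 were lost in the latter fit, in which 2 WT control mice remained. In that fit the log2 fold change was 1.06 for B230307C23Rik, -0.51 for C230057M02Rik and -0.88 for E530011L22Rik (edgeR, adjusted p of 0.0563 to 0.0717). GABAergic nuclei, where all but 1 member were deep enough to test, gave 5 (background 1.19%) and astrocytes 4 of 144 (0.653%). Between 3xTg-AD alcohol and 3xTg-AD control mice there were 2 in GABAergic nuclei (0.186%) and 3 in astrocytes (0.156%). Between the 2 alcohol groups there were 2 in astrocytes (0.386%), and between the 2 control groups 1 in astrocytes (0.129%). Without the 3 members that entered through the groups in which they were high, the counts against WT control were 4 in glutamatergic nuclei, 4 in GABAergic nuclei and 3 in astrocytes, and in astrocytes 2 against 3xTg-AD control and 1 against WT alcohol. In the other comparisons edgeR called 0 members in these classes. For glutamatergic nuclei these were 3xTg-AD control against WT control (0.49% of all genes, 11 members at an unadjusted p under 0.05), 3xTg-AD alcohol against WT alcohol (0.774%, 23), WT alcohol against WT control (0.00645%, 14) and 3xTg-AD alcohol against 3xTg-AD control (0.2%, 38), where DESeq2 called 1, 2, 1 and 10 members and 0.922%, 2.11%, 0.419% and 2.4% of all genes. In the same order, 1275, 2130, 2006 and 1906 of the 15509 genes tested had such a p in these comparisons. For GABAergic nuclei the first 3 of these gave 0.149%, 0.391% and 0.0746% of all genes, with 10, 12 and 16 members at such a p and 0, 0 and 2 called by DESeq2, against 0.205%, 0.597% and 0.233% of all genes. For astrocytes WT alcohol against WT control gave 0.0%, with 20 members at such a p and 0 called by DESeq2 (0.0919% of all genes). The interaction gave 0.0% in every class, with 5, 6 and 7 members at such a p in these 3 classes and 0 called by DESeq2. Oligodendrocytes, oligodendrocyte precursors, microglia and vascular cells had 0 members called in all 6 comparisons by edgeR and by DESeq2, with 61, 51, 47 and 11 members deep enough to test and at most 10, 7, 6 and 0 at an unadjusted p under 0.05. The shares of all genes called, in the order 3xTg-AD control against WT control, 3xTg-AD alcohol against WT alcohol, WT alcohol against WT control, 3xTg-AD alcohol against 3xTg-AD control and 3xTg-AD alcohol against WT control, were 0.176%, 0.242%, 0.044%, 0.0% and 0.286% in oligodendrocytes. They were 0.201%, 0.431%, 0.0574%, 0.0% and 0.287% in oligodendrocyte precursors, 0.0917%, 0.871%, 0.0%, 0.0% and 0.619% in microglia, and 0.396%, 0.679%, 0.17%, 0.17% and 2.21% in vascular cells. With the stricter assignment 12 of the 23 edgeR calls in classes were lost, 7 of them in astrocytes, where 3 remained, 4 in GABAergic nuclei, where 3 remained, and 1 in glutamatergic nuclei, that of 1700080N15Rik, where 5 remained. In all, 12 members were called in at least 1 comparison, among them the 3 that entered through the groups in which they were high. The share of all genes called at least once was not counted, so this is a description. The members that passed the filter in the smaller classes were those with more UMIs there. Apart from the glutamatergic comparisons between groups, counts per class at an unadjusted p stand without the share of all genes. They are given as a description.

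Among GABAergic calls, 1110046J04Rik, antisense to the serine protease inhibitor gene Serpinb6a, was at 21.1, 11.9, 18.9 and 29.9 CPM in WT control and 43.7, 39.7, 34.8 and 49.8 CPM in 3xTg-AD alcohol mice, given with no test. B230216N24Rik, a lncRNA within Pam, the gene of an enzyme that amidates neuropeptides, was at 43.4, 80.2, 93.2 and 90.6 against 119, 139, 127 and 130.0 CPM, a log2 fold change of 0.69 ± 0.17 (edgeR, adjusted p = 0.0269). In both cases the groups did not overlap, which is a description, since both were chosen by their call in this comparison. The call of B230216N24Rik was lost without the 3 mice with the most Gm42418 (0.53, edgeR, adjusted p = 0.0644) and with the stricter assignment (0.69, edgeR, adjusted p = 0.154), and it held in only 12 of 16 fits without 1 mouse, being lost without WT control 26 or 3xTg-AD alcohol 31, 33 or 34 (edgeR, adjusted p up to 0.101). The 6 members called in nuclei assigned to astrocytes were all lower there than in glutamatergic nuclei, and all but 4930480K15Rik (77.3 against 66.2 CPM) were also lower than in GABAergic nuclei. The summed level in astrocytes over that in the higher neuronal class was 0.270 to 0.390 for 5 of them, below the 0.529 of Slc17a7 and above the 0.206 of Gad1, and 0.828 for 4930480K15Rik. Astrocyte calls are differences in the RNA counted in these nuclei, and whether that RNA came from astrocytes was not tested. Among them, 1700028K03Rik was at 25.6, 27.6, 39.7 and 25.2 CPM in WT control and 13.3, 17.4, 9.41 and 15.3 CPM in 3xTg-AD alcohol mice, a log2 fold change of -1.10 ± 0.26 (edgeR, adjusted p = 0.0284). 4833420G17Rik was at 65.0, 94.7, 68.6 and 78.9 against 40.8, 42.8, 41.8 and 51.3 CPM, a change of -0.81 ± 0.19 (edgeR, adjusted p = 0.0284). Without the 3 mice with the most Gm42418 both calls were lost, at -1.10 for 1700028K03Rik (edgeR, adjusted p = 0.0990) and -0.66 for 4833420G17Rik (edgeR, adjusted p = 0.175), and DESeq2 did not make that of 1700028K03Rik (adjusted p = 0.0501). That of 1700028K03Rik was lost without WT control 26 or 28 or 3xTg-AD alcohol 4 or 33, and that of 4833420G17Rik without WT control 26 or 27 or 3xTg-AD alcohol 4, 31 or 33. With the stricter assignment that of 1700028K03Rik remained and that of 4833420G17Rik was lost (-0.68, edgeR, adjusted p = 0.180). For 4833420G17Rik the fall was called in astrocytes, while its log2 fold change in all nuclei was 0.04 ± 0.12 (edgeR, adjusted p = 0.882).

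4930480K15Rik, a lncRNA annotated as antisense, had the lowest adjusted p of the set. In astrocytes, WT control mice had 57.6, 67.1, 84.9 and 107 CPM, WT alcohol mice 75.03, 55.7, 44.3 and 52.6, 3xTg-AD control mice 74.1, 170.0, 153 and 175.5, and 3xTg-AD alcohol mice 57.4, 50.7, 46.4 and 50.2 CPM. Apart from 3xTg-AD control 12, the 3xTg-AD control mice stood above all other mice. From 3xTg-AD control to 3xTg-AD alcohol mice the log2 fold change was -1.49 ± 0.18 (edgeR, adjusted p = 5.71e-06). That of 3xTg-AD control against WT control, which shares the 3xTg-AD control mice, was 0.84 ± 0.19 (edgeR, adjusted p = 0.0444), with groups that overlapped. That call held in only 8 of 16 fits without 1 mouse (edgeR, adjusted p up to 0.244), being lost without 3xTg-AD control 13, 14 or 21, WT control 26, 27 or 28, 3xTg-AD alcohol 4 or WT alcohol 18. It was lost without the 3 mice with the most Gm42418 (0.82, edgeR, adjusted p = 0.0525) and with the stricter assignment (0.55, edgeR, adjusted p = 0.782). The call against 3xTg-AD control held in all of these fits and with the stricter assignment (-1.17, edgeR, adjusted p = 0.00960). Against WT control, 3xTg-AD alcohol mice differed by -0.65 ± 0.20 (edgeR, adjusted p = 0.107). The order of mice was not limited to astrocytes. In all nuclei 3xTg-AD control 13, 14 and 21 were among mice at 63.7 to 172 CPM, 3xTg-AD control 12 had 57.5 CPM and 3xTg-AD alcohol mice had 46.4 to 62.4 CPM. There edgeR called 0 members between these groups. The summed level of 4930480K15Rik was 93.3 CPM in glutamatergic nuclei and 77.3 CPM in astrocytes.

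The chromosome 7 cluster held 4 members in a row on the minus strand between Snrpn and Ndn, genes of the imprinted Prader-Willi region that are expressed from the paternal allele. They were A230006K03Rik (chr7:61127996-61311721), B230209E15Rik (chr7:61529871-61615327), A230057D06Rik (chr7:61704519-61928690) and A330076H08Rik (chr7:61930137-61982358), all lncRNAs. The last pair overlaps genes of the miR-344 family, whose sequences are printed because these members include the GABAergic call with the lowest adjusted p.
A330076H08Rik and A230057D06Rik, miR-344-3p: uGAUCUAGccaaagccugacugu
A230057D06Rik, miR-344c-3p: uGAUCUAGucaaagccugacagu
A230057D06Rik, miR-344e-3p: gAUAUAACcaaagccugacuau
A230057D06Rik, miR-344d-3p: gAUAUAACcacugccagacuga
A330076H08Rik, miR-344g-5p: aGUCAGGCuccuggcaggagu
A230057D06Rik, miR-344b-5p: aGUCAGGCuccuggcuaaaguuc
Within the family the seed of miR-344-3p was that of miR-344c-3p as well, and miR-344d-3p and miR-344e-3p shared theirs. The seed of miR-344g-5p and miR-344b-5p, GUCAGGC, was found in 5 different mature sequences.

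In GABAergic nuclei A330076H08Rik was higher in 3xTg-AD alcohol mice than in either control group. WT control mice had 184, 199.7, 232 and 258 CPM, WT alcohol mice 299.7, 248, 423 and 393, 3xTg-AD control mice 278, 242, 234 and 246, and 3xTg-AD alcohol mice 367, 574, 400.0 and 457 CPM. The 3xTg-AD alcohol mice lay above every mouse of both control groups. The log2 fold change was 0.99 ± 0.16 against WT control (edgeR, adjusted p = 0.000364) and 0.82 ± 0.16 against 3xTg-AD control mice (edgeR, adjusted p = 0.0182). The first call held when any 1 mouse was left out, while the second held in 11 of 16 such fits (edgeR, adjusted p up to 0.156) and was lost without 3xTg-AD control 13, 14 or 21 or 3xTg-AD alcohol 31 or 34. Both remained with the stricter assignment. Against WT alcohol mice, which overlapped the 3xTg-AD alcohol mice, the log2 fold change was 0.38 ± 0.16 and was not called (edgeR, adjusted p = 0.445). WT alcohol against WT control gave 0.61 ± 0.16 (edgeR, adjusted p = 0.176), and the interaction gave 0.21 ± 0.23 (edgeR, adjusted p = 0.997), so a difference between genotypes in the response to alcohol was not shown. In glutamatergic nuclei the mean was 132 ± 37.0 CPM (SD, n = 4) in WT control and 248 ± 73.6 CPM in 3xTg-AD alcohol mice, a log2 fold change of 0.93 ± 0.25 (edgeR, adjusted p = 0.0510).

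Its neighbor B230209E15Rik was called in the glutamatergic nuclei, where it was at 96.1, 94.9, 94.1 and 97.4 CPM in WT control, 116, 105, 119 and 137 in WT alcohol, 115, 117, 87.8 and 100.4 in 3xTg-AD control, and 137, 171, 155 and 129 CPM in 3xTg-AD alcohol mice. All WT alcohol and 3xTg-AD alcohol mice were above all WT control mice, as were the 3xTg-AD control mice at 115, 117 and 100.4 CPM. WT alcohol against WT control gave a log2 fold change of 0.26 ± 0.13 (edgeR, adjusted p = 0.403), which was not called. The interaction gave 0.26 ± 0.18 (edgeR, adjusted p = 0.969). The log2 fold change of 3xTg-AD alcohol against WT control was 0.62 ± 0.13 (edgeR, adjusted p = 0.0139), and against 3xTg-AD control mice 0.52 ± 0.13 (edgeR, adjusted p = 0.0721). In all nuclei it was 0.55 ± 0.13 against WT control (edgeR, adjusted p = 0.0255). The other neighbors were not called in that contrast in all nuclei. A330076H08Rik gave 0.84 ± 0.24 (edgeR, adjusted p = 0.0610), A230006K03Rik 0.51 ± 0.41 (edgeR, adjusted p = 0.528) and A230057D06Rik 0.18 ± 0.20 (edgeR, adjusted p = 0.678). In GABAergic nuclei B230209E15Rik gave 0.58 ± 0.20 against WT control and was not called (edgeR, adjusted p = 0.150). The promoter windows of B230209E15Rik and A330076H08Rik are printed as a pair. The first was called in glutamatergic and all nuclei, the second in GABAergic nuclei. Capitals mark CCAAT and TATAAA on either strand (ATTGG and TTTATA are their reverse complements). The TATAAA match of B230209E15Rik opens its window, far from the start, on the strand opposite the transcript.
A330076H08Rik chr7:61982306-61982605, minus strand: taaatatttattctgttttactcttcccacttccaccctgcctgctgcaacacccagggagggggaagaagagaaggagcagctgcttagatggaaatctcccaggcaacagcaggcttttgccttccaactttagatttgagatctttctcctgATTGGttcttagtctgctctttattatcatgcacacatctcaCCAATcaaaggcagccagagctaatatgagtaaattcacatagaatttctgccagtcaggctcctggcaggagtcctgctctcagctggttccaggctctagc
B230209E15Rik chr7:61615278-61615577, minus strand: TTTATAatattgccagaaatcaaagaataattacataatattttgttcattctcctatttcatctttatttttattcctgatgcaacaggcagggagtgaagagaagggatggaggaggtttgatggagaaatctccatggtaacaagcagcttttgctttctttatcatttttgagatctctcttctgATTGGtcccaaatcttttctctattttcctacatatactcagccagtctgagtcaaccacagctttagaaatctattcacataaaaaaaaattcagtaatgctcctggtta
A local alignment of the windows had 184 identical bases in 276 columns (66.7%), with 29 gap bases. Neither window held a CpG dinucleotide, and the GC content was 46.7% and 34%.

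**Figure D4:**
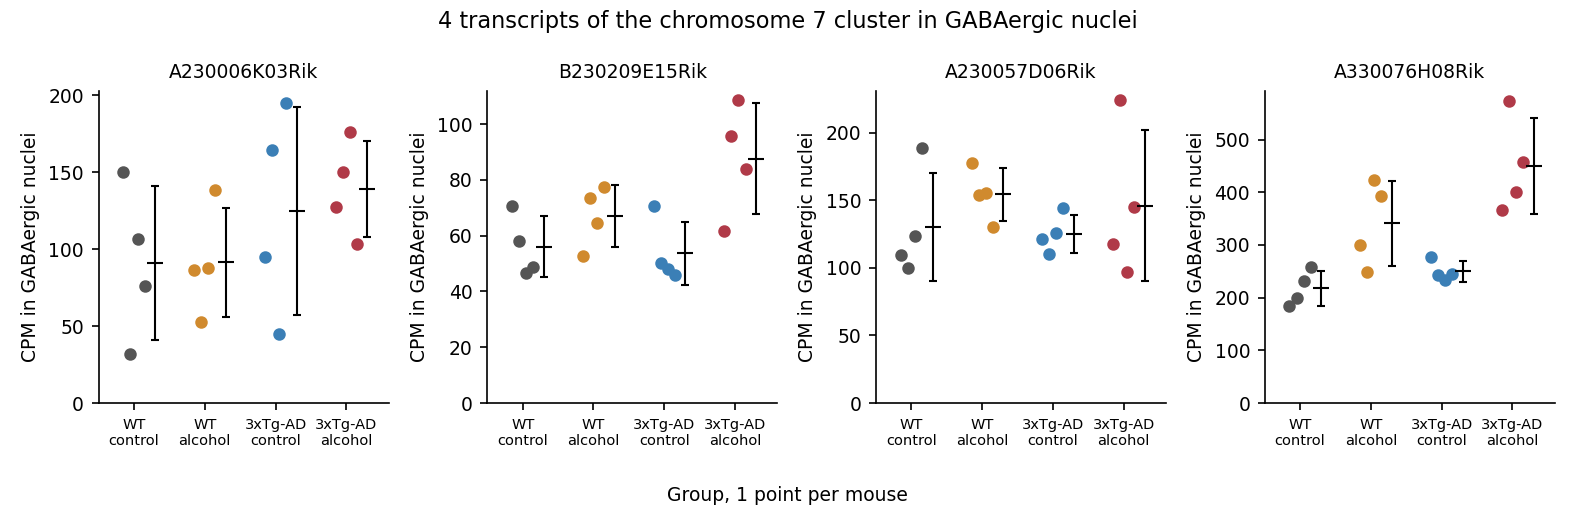
CPM in GABAergic nuclei of the 4 transcripts of the chromosome 7 cluster, by group, 1 point per mouse with the mean ± SD beside the points (n = 4). For A330076H08Rik the 3xTg-AD alcohol mice lie at 367 CPM or more and the mice of both control groups at 278 CPM or less.

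A recurrent order of the mice ran through 7 members in all nuclei, and no label marks it. For E530011L22Rik, 4930480K15Rik, 8030451O07Rik, 1500035N22Rik, 2410021H03Rik, 4833422C13Rik and 1110002L01Rik the 7 highest mice were the same ones, WT control 28 and 36, WT alcohol 6 and 7, and 3xTg-AD control 13, 14 and 21. No 3xTg-AD alcohol mouse was among them. These were 4.67% of the members, against 129 of the 6676 other rows with at least as many UMIs (1.93%). The set was chosen as the one most frequent among the members, which showed 129 different sets of 7 highest mice. The choice raises the share of the members, so these shares cannot show whether members carry the order more often. The ratio of the medians of the 7 and the other 9 mice was 1.67 to 2.29. For 4930480K15Rik the 7 mice had 63.7 to 172 CPM and the 9 others 39.0 to 62.4 CPM. All 7 are lncRNAs, 5 of them annotated as antisense, among them those opposite Nktr, Epb41l3, Ssbp2 and Kif3c. Of all members, 68 are lncRNAs and 19 are annotated as antisense. Such kinds were not counted among the 129 other rows with the same mice highest. The make-up of the 7 transcripts is thus a description and no evidence about antisense RNAs. The 3xTg-AD alcohol group had none of its mice among the 7 while the other groups had 2 or 3, so the order moves with the comparisons in which E530011L22Rik and 4930480K15Rik were called, and its part in these calls was not tested. Among the 9 other mice, E530011L22Rik was at 231 and 234 CPM in WT control and 144 and 164 CPM in WT alcohol mice. It was at 232 CPM in 3xTg-AD control and 133 to 212 CPM in 3xTg-AD alcohol mice. In the same order of groups, 4930480K15Rik was at 47.8 and 49.2 CPM, 39.0 and 51.7 CPM, 57.5 CPM and 46.4 to 62.4 CPM. The 3 mice with the most Gm42418 were all outside the 7.

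**Figure D5:**
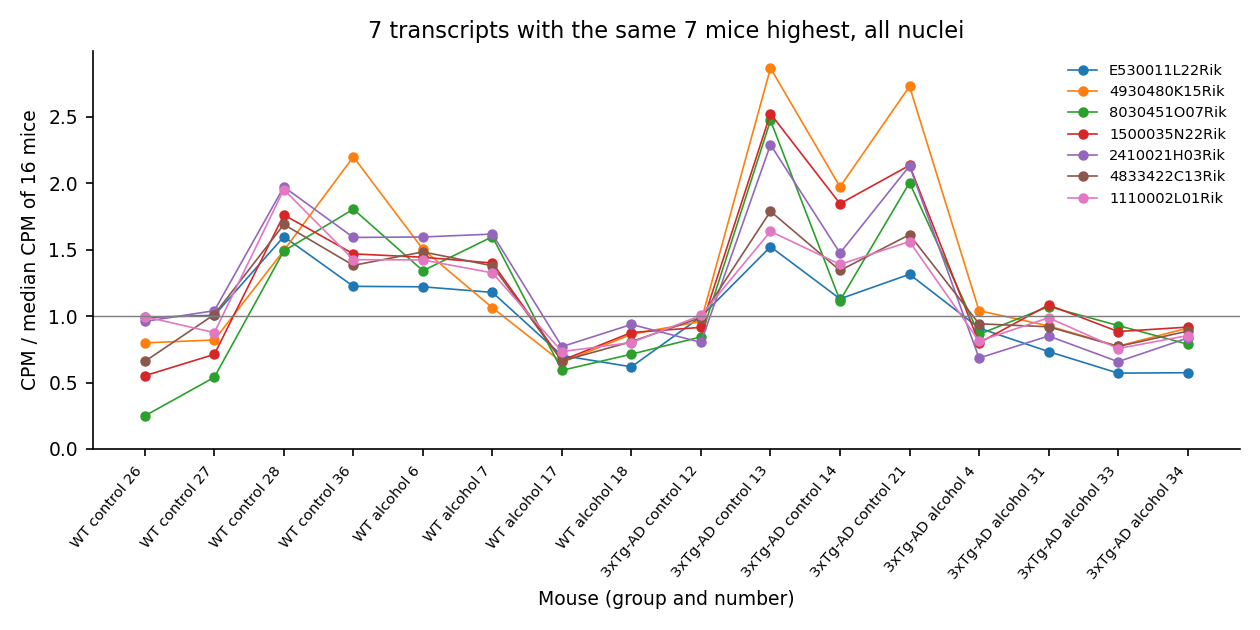
CPM in all nuclei divided by the median of the 16 mice for the 7 transcripts with the same 7 mice highest, by mouse (16 mice, lines join the values of 1 transcript). No 3xTg-AD alcohol mouse is among the 7 highest mice of any of these transcripts.

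Over the 16 mice, the coefficient of variation of the members had a median of 0.152, against 0.141 for the other rows with at least as many UMIs. It was at least 0.5 for 5 members, A830036E02Rik (1.44), C130073E24Rik (0.807), 1700080N15Rik (0.569), 4930480K15Rik (0.531) and 8030451O07Rik (0.517). The value of C130073E24Rik, an intergenic lncRNA on chromosome 8, came from WT control 27 at 109.7 CPM, the mouse with olfactory-type markers, against a median of 21.5 CPM.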

How the data were processed

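The authors aligned 10x Chromium 3' reads of 16 nuclear libraries to mm10 with Cell Ranger 6.1.1, which uses STAR, and deposited UMI counts of 19999 genes in 114512 nuclei, with no normalization. Nuclei carry the name of their mouse, from which the groups were taken. Members and lists were chosen with earlier results of these data known.

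Nuclei were given to 1 of 7 classes from marker genes. Seeds had at least 3 UMIs from at least 2 markers of a class and at most 1 of any other, and a nucleus entered a class when its likelihood was at least 100 times that of the next. No doublet caller was run, and 36673 nuclei were unassigned. Class names were rebuilt and not transferred from a reference. Counts were summed per mouse, in all nuclei and per class (at least 20 nuclei in at least 3 mice of each group), and levels are CPM of these sums. edgeR 4.0.16 in R 4.3.3 (TMM, filterByExpr, robust quasi-likelihood fit, 4 group means, 16 mice) was fitted to all genes for 6 contrasts, with Benjamini-Hochberg adjustment and calls at 0.05; the SE is the absolute log2 fold change over the square root of F. In simulated counts of 16588 genes, 69% of 200 genes changed by 1 on the log2 scale were called for 3xTg-AD alcohol against WT control in all nuclei. The genes were simulated independently, without a shared order of mice. DESeq2 1.42.0, RLE size factors, no filter, a stricter class assignment (1000000 times), leaving out each mouse and leaving out the 3 mice with the most Gm42418 were alternatives. Positions are of GENCODE vM21 and RefSeq GRCm38.p6. Members named were the 20 with the most UMIs, 3 per class by ratio (at least 50 UMIs there), those called (up to 10 per comparison), those at the limit of the rule and those at a microRNA gene; members of the chromosome 7 cluster, of the shared order of mice and of the widest spread were singled out after their values were seen. Errors cover differences between mice and counting error together, and the labels do not name litters or batches. Some results of single members are not reported here.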

Additional observations from a re-analysis of the deposited data

Results flagged for a closer look

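Among the 34 members examined in 4 groups each (136 groups of 4 mice), 5 groups held 1 mouse far from the other 3, which chance alone gives for about 1 in 20 groups. In all nuclei, 3xTg-AD control 12 had 226.8 CPM of E130102H24Rik, the host of miR-101a, against 93.1 to 106.8 CPM in the other 3 mice of its group. The same mouse had 311 CPM of 4932438A13Rik, a large coding gene also known as Bltp1, against 227 to 241 CPM. It is 1 of the 3 mice with the most Gm42418, and WT control 26 and 27, the others, had 161 and 281 CPM of E130102H24Rik against 98.5 and 103.7 CPM in the remaining WT control mice. WT alcohol 7 had 164 CPM of B230216N24Rik against 124 to 129 CPM, and WT alcohol 17 had 136 CPM of 4833420G17Rik against 114 to 117.5 CPM. 3xTg-AD alcohol 34 had 0.966 CPM of A830036E02Rik against 0.375 to 0.471 CPM, all close to 0.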

How the results depend on the processing

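No paired analysis was possible because the numbers in the labels name single mice and no number occurs in more than 1 group. No log2 fold change of a called member turned its direction under any alternative run (466 stayed on their side of the threshold and 137 did not pass it), and RLE size factors moved no count of calls by over 1.5 times. Counts of members called were less stable. Shares of all genes called in the same fit stand beside them, except for the ranges over the classes without 1 mouse. Members that entered the list through the groups in which they were high are included in these counts. In all nuclei DESeq2 called 12 for 3xTg-AD alcohol against WT control (8.0% of members, 7.34% of all genes; edgeR 6), 8 against 3xTg-AD control (5.33%, 2.36%), 3 against WT alcohol (2.0%, 2.51%), 1 for 3xTg-AD control against WT control (0.667%, 1.19%) and 1 for WT alcohol against WT control (0.667%, 0.602%), where edgeR called 0 in these 4. Without a filter on low counts 1 was called against 3xTg-AD control (0.667%, 0.48%). Without the 3 mice with the most Gm42418 the counts were 13 against WT control (8.67%, 3.82%), 11 against 3xTg-AD control (7.33%, 2.65%) and 1 against WT alcohol (0.667%, 1.87%); the control mice that remain then all belong to the 7 mice with the shared order, and the part of that order was not tested. Over the classes together, with the share of all gene tests called in brackets, edgeR called 15 members against WT control [1.57%] (DESeq2 23 [2.39%], stricter assignment 8 [1.59%]), 5 against 3xTg-AD control [0.138%] (DESeq2 17 [0.809%], without the 3 mice 34 [1.38%], stricter assignment 2 [0.144%]) and 2 against WT alcohol [0.546%] (no filter 5 [0.461%], without the 3 mice 7 [1.19%], stricter assignment 1 [0.527%]). For 3xTg-AD control against WT control it called 1 [0.257%] (DESeq2 3 [0.4%], no filter 3 [0.242%], without the 3 mice 0 [0.166%], stricter assignment 0 [0.259%]), for WT alcohol against WT control 0 [0.0312%] (DESeq2 3 [0.197%], no filter 1 [0.0689%]) and for the interaction 0 [0.0%] (no filter 1 [0.00641%]). Vascular cells could not be fitted under the stricter assignment. Leaving out each mouse gave 2 to 10 calls in all nuclei against WT control (1.66% to 5.09% of all genes) and 0 to 7 against 3xTg-AD control (0.0% to 1.43%). It gave 0 to 2 against WT alcohol (0.29% to 1.07%) and 0 to 1 between the control groups (0.205% to 0.617%). The WT alcohol comparison (0.00587% to 0.0296%) and the interaction (0.0% to 0.00591%) gave 0 to 0. Over the classes the ranges were 6 to 18, 2 to 13, 1 to 4, 0 to 3, and 0 to 0 in the last pair. B230307C23Rik and C230057M02Rik stayed called in all nuclei without any 1 mouse. B230209E15Rik was lost without WT control 27, 28 or 36 or 3xTg-AD alcohol 31 or 33 (edgeR, adjusted p of 0.0539 to 0.0675), and E530011L22Rik without WT control 26 or 28 or 3xTg-AD alcohol 31, 33 or 34 (0.0543 to 0.0998). The causes were not tested. A 2-fold change was recovered in 69.5% of simulated GABAergic and 70.5% of simulated astrocyte genes, and smaller changes in shallower classes may have been missed.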

Other observations

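E130102H24Rik, which lies over the miR-101a gene on chromosome 4, was looked at by class in the 3 mice with the most Gm42418 after its values were seen. In glutamatergic nuclei WT control 26, WT control 27 and 3xTg-AD control 12 had 183, 306 and 248 CPM, in GABAergic nuclei 197, 322 and 243 CPM and in astrocytes 131, 199 and 166 CPM. In the other mice the range was 110.3 to 185 CPM, 106.5 to 204 CPM and 64.1 to 144 CPM, so WT control 27 and 3xTg-AD control 12 lay above all others in each class and WT control 26 did not.

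B230334C09Rik, a single-exon antisense RNA opposite Lrrc40, ranged from 188 CPM in WT control 26 to 404 CPM in 3xTg-AD alcohol 31, with group means of 258 ± 57.9, 287 ± 43.8, 269 ± 23.9 and 306 ± 69.1 CPM (SD, n = 4) in WT control, WT alcohol, 3xTg-AD control and 3xTg-AD alcohol mice. D430042O09Rik, a coding gene known as Katnip, was at 158.8 to 166 CPM in the 3xTg-AD alcohol mice.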
